A study of Mus musculus with 232 samples.

Results

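The genes of oxidative phosphorylation were followed in single mouse embryonic stem cells (ESCs). Members were chosen by symbol alone: protein-coding genes starting Ndufa, Ndufb, Ndufc, Ndufs, Ndufv, Uqcr, Cox4 to Cox8 or Atp5, together with Sdha, Sdhb, Sdhc and Sdhd (nuclear members), and those starting mt- (mt- members). Of 42493 genes in the data, 98 met the rule, of which 85 were nuclear and 13 were encoded by mtDNA. The prefixes also take in a few genes with another role, such as Cox7a2l, known for respiratory supercomplexes, and Ndufab1, the mitochondrial acyl carrier protein. A mean of at least 5 counts over the cells was reached by 79 nuclear members and all 13 mt- members, out of 11186 genes that passed this filter. The 6 that did not were Cox4i2, Cox6a2, Cox7b2, Cox8b, Cox8c and Ndufa4l2.

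Oxidative phosphorylation is run by 5 protein complexes of the inner mitochondrial membrane. Complexes I to IV pass electrons from NADH and succinate to oxygen, and complex V, the ATP synthase, uses the proton gradient they build to make ATP. Complexes I, III, IV and V are assembled from subunits of both genomes: a few core subunits come from mitochondrial DNA (mtDNA), which is transcribed inside the organelle by its own polymerase, and all other subunits come from nuclear genes, whose mRNAs are translated in the cytosol and imported. Complex II is encoded by nuclear genes only. ESCs in culture rely strongly on glycolysis and hold immature mitochondria, although they transcribe both sets of genes.

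DGCR8 helps to cut miRNA precursors in the nucleus, and ESCs without it hold few mature miRNAs. Single cells were captured 24 h after treatment on Fluidigm C1 chips from 4 conditions grown with serum, LIF and 2i (PD0325901 and CHIR99021): mock-transfected Dgcr8-/- cells (60), Dgcr8-/- cells given a miR-294 mimic (58), Dgcr8-/- cells given a let-7 mimic (48), and wild type (WT) V6.5 cells (16). V6.5 is the name in the titles of the WT cells. The treatment text is common to all samples and names a transfection, without saying what WT cells received. The let-7 mimic is called let-7i in the sample titles, let-7b in the series description and let-7c in the study. The chip was 1 per condition and no separate cultures were named, so each condition is 1 sample: no test was possible, a difference between conditions cannot be told apart from one between chips, and the spread given is that over cells. The deposited cells had also been selected by the study for depth and, where transfected, for lower levels of the targets of the mimic.

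miR-294 belongs to the miRNA family that is most abundant in ESCs, and let-7 to the family that rises as they differentiate. The mature sequences from RefSeq (GRCm38.p6) are shown because the seed, bases 2 to 8 in capitals, decides which 3′ UTRs a mimic can pair with.
mmu-miR-294-3p: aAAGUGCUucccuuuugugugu
mmu-let-7c-5p: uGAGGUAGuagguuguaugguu
mmu-let-7i-5p: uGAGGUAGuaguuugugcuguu
mmu-let-7b-5p: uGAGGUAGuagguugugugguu
The 3 let-7 names share 1 seed, so the search for its match, CTACCTC, is the same for each. The match for miR-294 is AGCACTT. On the transcript with the longest coding sequence in Gencode M21 (GRCm38), 4 of 85 nuclear members (4.71%) held the miR-294 match in the 3′ UTR, against 15.7% of 10369 protein-coding genes that passed the filter. A let-7 match was held by 1 of 85 (1.18%), against 9.21% of those genes. The 3′ UTRs of the members were short, with a median of 155 bases against 954 for the genes that passed the filter. The 5 stretches are printed on the mRNA strand with the match in capitals, to show which members could pair with a seed.
Sdhd, chr9:50597069-50597075, minus strand: cctgggtgcAGCACTTtgattgtgtgc
Ndufs4, chr13:114288534-114288540, minus strand: tacgaaatcagAGCACTTagagtttacca
Atp5g1, chr11:96069423-96069429, minus strand: ctagtaatcccAGCACTTggagtatgcag
Ndufb2, chr6:39603295-39603301, plus strand: atcaattacatAGCACTTtttggggggtt
Cox7b, chrX:106022195-106022201, plus strand (let-7 match): cttactgccctCTACCTCgtggttatatt
A match is a description of letters and not a shown site of action. Sdhd, the membrane anchor of complex II, held its match at base 10 of the 3′ UTR, and its mean normalized count after miR-294 was 1.64-fold that of Dgcr8-/- cells. Atp5g1 was 1.22-fold higher there, while Ndufs4 and Ndufb2 were 1.27-fold and 1.17-fold lower. The match lay at base 3675 of a 3′ UTR of 4252 bases in Atp5g1, 3925 of 4012 in Ndufb2 and 223 of 968 in Ndufs4. These 3′ UTRs are far longer than the median of the members, and whether the cells held these forms was not tested. Cox7b differed by 1.04-fold between let-7-transfected and Dgcr8-/- cells.

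The total count of a cell ranged from 513540 to 3979290, and the median over cells lay between 1307490 (WT) and 1574740 (Dgcr8-/-). For 50 cells 2 runs were deposited, which were summed: 23 of the Dgcr8-/-, 18 of the miR-294-transfected, 7 of the let-7-transfected and 2 of the WT cells. The runs of a cell correlated at 0.986 or above, except in 1 WT cell (r = 0.697) and 1 let-7-transfected cell (r = 0.688). In 3 pairs of cells, of which 2 were let-7-transfected and 1 miR-294-transfected, the counts correlated above 0.99, as for repeat runs of 1 cell. Dgcr8 was counted in 54 of 60 Dgcr8-/- cells with a mean of 51.5 normalized counts, against 118 in WT cells. A gene-level count does not separate the deleted part of Dgcr8 from the rest, so it is no check of the genotype. The 12 ESC markers were counted in every condition, with a median summed level of 10655 normalized counts in Dgcr8-/-, 10815 in miR-294-transfected, 8978.7 in WT and 6615.9 in let-7-transfected cells. Fibroblast and primitive endoderm markers had a median of 0 in each condition, although single cells held counts. The highest summed levels were in let-7-transfected cells, at 349.76 for fibroblast and 469.25 for primitive endoderm markers. Gata4, a primitive endoderm marker, was counted in 7 let-7-transfected, 5 miR-294-transfected, 1 Dgcr8-/- and 0 WT cells. The 6 markers of early differentiation had a median summed level of 74.172 in WT, 2.4635 in Dgcr8-/-, 0.58305 in miR-294-transfected and 4.2797 in let-7-transfected cells. Eomes, a mesendoderm factor, led them in WT, with counts in 13 of 16 WT and 18 of 60 Dgcr8-/- cells and means of 83.5 and 21.6. The part of these markers in the differences between WT and Dgcr8-/- cells was not tested.

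Values are normalized counts, the expected count of a gene divided by the DESeq size factor of the cell, unless a percent of counts is given. Of the 862 genes counted in every cell, on which the factors rest, 33 were nuclear members and 7 were mt- members. In the 3 comparisons, a gene is called higher or lower where the means of normalized counts differ by at least 1.5-fold, a log2 ratio of 0.585. These comparisons share the Dgcr8-/- cells, so they are not independent of each other. Counts per 1000000 counts of a cell (CPM) and TMM factors served as other scalings.

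The nuclear members as a whole were at nearly the same level in the 4 conditions, whereas the mt- mRNAs were not. The summed normalized count of the nuclear members had a lowest, median and highest cell of 13978, 19477.5 and 24581 in WT. The same values were 12834, 21457 and 39138 in Dgcr8-/- cells. They were 15890, 21120.5 and 28205 in miR-294-transfected cells and 11313, 20029.5 and 25674 in let-7-transfected cells. The ranges overlapped broadly, and the means of 19966.9 ± 2833.9 (SD, 16 WT cells), 21222.5 ± 4440.1 (60 Dgcr8-/- cells), 21175.2 ± 2475.39 (58 miR-294-transfected cells) and 20029 ± 3033.32 (48 let-7-transfected cells) lay within 1 SD of each other. That SD describes single cells and does not show that the means are equal. Under CPM without members and ribosomal genes the log2 ratios of these sums were 0.20 for miR-294 over Dgcr8-/-, -0.16 for let-7 over Dgcr8-/- and -0.12 for Dgcr8-/- over WT, in place of -0.003, -0.08 and 0.09, so no direction is given for them.

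For the mt- members, the lowest, median and highest cells were at 8106.1, 29934 and 50317 normalized counts in WT. They were at 141.51, 46988 and 240150 in Dgcr8-/- cells. They were at 8891.9, 25566.5 and 122000 in miR-294-transfected cells and at 13892, 44007 and 127680 in let-7-transfected cells. The conditions thus fell in 2 levels by their medians, with Dgcr8-/- and let-7-transfected cells above WT and miR-294-transfected cells, although cells of every condition overlapped. A miR-294-transfected cell was above a Dgcr8-/- cell in 27.7% of all pairs of such cells, and a Dgcr8-/- cell was above a WT cell in 74.4%. Between let-7-transfected and Dgcr8-/- cells this share was 47.6%, and between miR-294-transfected and WT cells 46.6%, close to an even split in both. By means, the mt- level was 1.67-fold lower after miR-294 than in mock Dgcr8-/- cells, 1.15-fold lower in let-7-transfected cells, and 1.88-fold higher in Dgcr8-/- than in WT cells. As a percent of the counts of a cell, the medians kept their order, with a smaller gap between the 2 levels. They were 3.25% in Dgcr8-/-, 2.86% in let-7-transfected, 2.32% in WT and 1.96% in miR-294-transfected cells.

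As a share of all counts of a condition, the nuclear members took 1.497% in WT (95% Clopper-Pearson interval 1.493 to 1.502), 1.414% in Dgcr8-/- (1.411 to 1.416), 1.596% in miR-294-transfected (1.594 to 1.598) and 1.28% in let-7-transfected cells (1.277 to 1.282). The mt- members took 2.242% (2.236 to 2.248), 3.629% (3.626 to 3.633), 2.715% (2.711 to 2.718) and 3.033% (3.03 to 3.037) in the same order. These intervals cover counting error only, since amplified reads are not separate molecules. They are far narrower than the spread over cells, whose SD for the mt- share was 2.52 percentage points in Dgcr8-/- and 0.783 in WT cells. By shares per cell, a let-7-transfected cell was below a miR-294-transfected cell in its nuclear members in most pairs, with the let-7-transfected cell higher in 14.1%.

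**Figure D1:**
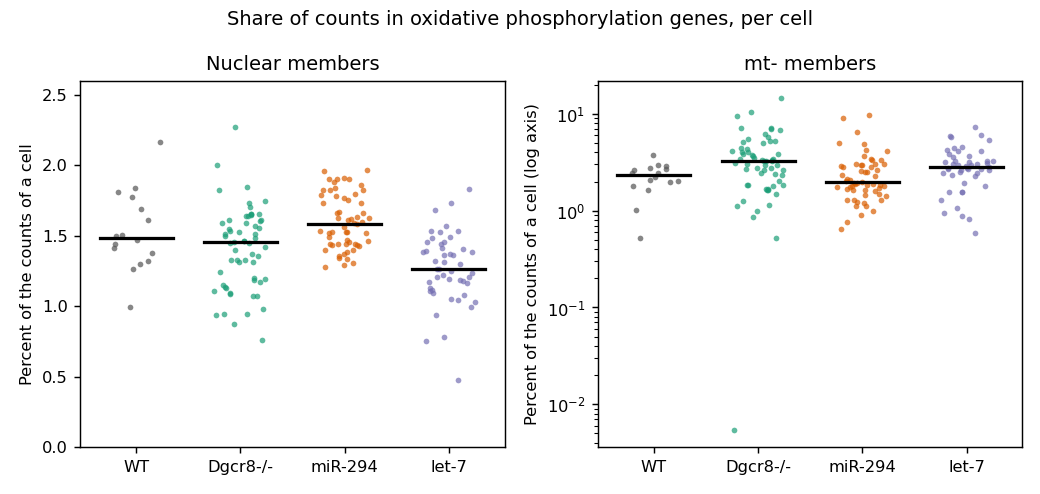
Percent of the counts of a cell in nuclear members (left, linear axis) and mt- members (right, log axis), 1 point per cell, with the median of each condition as a bar. The nuclear shares overlap between the conditions, with a lower median in let-7-transfected cells (1.27%), and the median mt- share is 3.25% in Dgcr8-/- and 1.96% in miR-294-transfected cells, with 1 Dgcr8-/- cell far below all others.

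The 2 mtDNA-encoded rRNAs, mt-Rnr1 and mt-Rnr2, which are not members, did not show the split of the mt- mRNAs. Their summed level after miR-294 was 1.01-fold that of Dgcr8-/- cells, and it was 1.09-fold higher in Dgcr8-/- than in WT cells, by means. In let-7-transfected cells it was 1.23-fold above Dgcr8-/- cells. Within each condition the mt- mRNAs and these rRNAs still varied together over cells, with a Spearman correlation of 0.529 in WT (16 cells), 0.836 in Dgcr8-/- (60 cells), 0.862 in miR-294-transfected (58 cells) and 0.664 in let-7-transfected cells (48 cells). Both measures share the library and the size factor of the cell.

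The number of runs moved with the mt- share, and it differed between conditions. In cells with 1 run, the median mt- share was 2.32% in WT, 2.78% in Dgcr8-/-, 1.83% in miR-294-transfected and 2.83% in let-7-transfected cells. In cells with 2 runs it was 2.45%, 3.63%, 3.02% and 3.64%. The order of Dgcr8-/- above miR-294-transfected cells was thus present in both sets, with a smaller gap in cells with 2 runs. The second run of a cell had the higher mt- share in 43 of 50 cells, by a median log2 ratio of 0.06. The part of the runs in the result was not tested.

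All 13 mt- mRNAs had a lower mean after miR-294 than in mock Dgcr8-/- cells, with a median log2 ratio of -0.53, a difference of -0.25 from the median of all genes. All 13 were also below 0 under TMM and CPM, with 12 by the mean of log2 values and 11 by pooled counts. Of them, 5 were lower by at least 1.5-fold (38.5%) and 0 higher, where 35.1% of all genes were lower and 11.7% higher and their median was -0.28. The share called lower was therefore near that of all genes that passed the filter, among which lower calls prevailed. That background fell with level. Of genes with a mean of at least 100 counts 22.5% were lower (median -0.165), and of those with at least 500 counts 16.5% (median -0.09). Against such genes the share of the mt- members was the larger with DESeq factors, the only scaling used at these levels. mt-Nd5, 1 of the 5 at -0.595, was under 1.5-fold without the near-identical cells (-0.584) and in cells with 1 run (-0.578). Without the near-identical cells 4 of 13 mt- members were lower, against 35.2% of all genes. In cells with 1 run 6 of 13 were lower, against 34.3%. The split of calls over all genes depended on scaling, with 24.9% of the calls higher under DESeq factors, 34.6% under TMM, 38.8% under CPM and 45.9% by the mean of log2 values. Under CPM 26.7% of genes and 3 of 13 mt- members were lower. The mtDNA-encoded subunits of complex IV led. mt-Co3 had a lowest, median and highest cell of 0, 6090.1 and 32445 in Dgcr8-/- cells and of 315.75, 3335 and 16249 in miR-294-transfected cells, and its mean was 2.16-fold lower. Its summed count was 320832 (95% exact Poisson interval 319720 to 321940) against 602159 (600640 to 603680). The cells overlapped, with a miR-294-transfected cell above a Dgcr8-/- cell in 21.9% of pairs.

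mt-Co2 was 1.78-fold lower and mt-Co1 1.73-fold lower, with medians of 2738.1 against 4878.8 and of 7153.6 against 13667. mt-Cytb, the mtDNA-encoded subunit of complex III, was 1.72-fold lower, with a median of 3450 against 5784.4. The mtDNA-encoded subunits of complex I ranged from -0.60 (mt-Nd5) to -0.33 (mt-Nd3) on the log2 scale, and those of complex V, mt-Atp6 and mt-Atp8, were at -0.50 and -0.44. The difference was thus larger for the 3 mtDNA-encoded complex IV subunits (median -0.83) than for the 7 of complex I (median -0.47), as values of these samples.

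The nuclear members stood apart from this. Their median log2 ratio was 0.04, a distance of 0.32 above the median of all genes, and 3 were higher (3.8%) and 1 lower (1.27%) out of 79, where 11.7% of all genes were higher and 35.1% lower. Genes with higher counts lay closer to the members. At a mean of at least 100 counts the median was -0.165, with 5.03% higher and 22.5% lower. At 500 counts it was -0.09, with 1.87% and 16.5%. The 37 complex I members that passed the filter had no gene past 1.5-fold, and 23 of them were below 0, with a median of -0.09 that turned to 0.04 under TMM and 0.09 under CPM. Of the complex III members, 7 of 8 were above 0, with a median of 0.19. The medians were 0.16 in complex IV (13 members) and 0.10 in complex V (17 members). In the 4 complex II genes, Sdhd was at 0.72, and Sdhc, Sdhb and Sdha were at -0.26, -0.23 and -0.34.

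The members highest after miR-294 were led by Cox7a2l at 0.74. It had a lowest, median and highest cell of 0, 94.962 and 577.27 in Dgcr8-/- cells and of 2.0902, 181.74 and 490.56 in miR-294-transfected cells. Sdhd had values of 0, 200.37 and 998.24 in Dgcr8-/- cells and of 28.483, 394.66 and 823.04 in miR-294-transfected cells, with the miR-294-transfected cell higher in 72.5% of pairs. Uqcrq, a small subunit of complex III, followed at 0.64 with medians of 90.698 and 141.51, and was higher in 77% of pairs. In cells with 1 run it was under 1.5-fold, at 0.51. Cox6b2 (0.58) and Atp5e, the epsilon subunit of ATP synthase (0.55), came next and were under 1.5-fold.

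Among the lowest were Cox7a1 at -0.73, Ndufv1 at -0.53, Uqcrb at -0.51 and Ndufs1 at -0.43. Cox7a1, the isoform of heart and skeletal muscle, was the 1 member past 1.5-fold, and it was sparse: it was counted in 33 of 60 Dgcr8-/- and 38 of 58 miR-294-transfected cells, with means of 9.87 ± 13 (SD) and 5.96 ± 8.75. Ndufs1 and Ndufv1 are core subunits of the electron-transferring arm of complex I. Uqcrb went from a median of 403.68 to 342.37, and its highest cell from 1529.4 to 569.93.

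**Figure D2:**
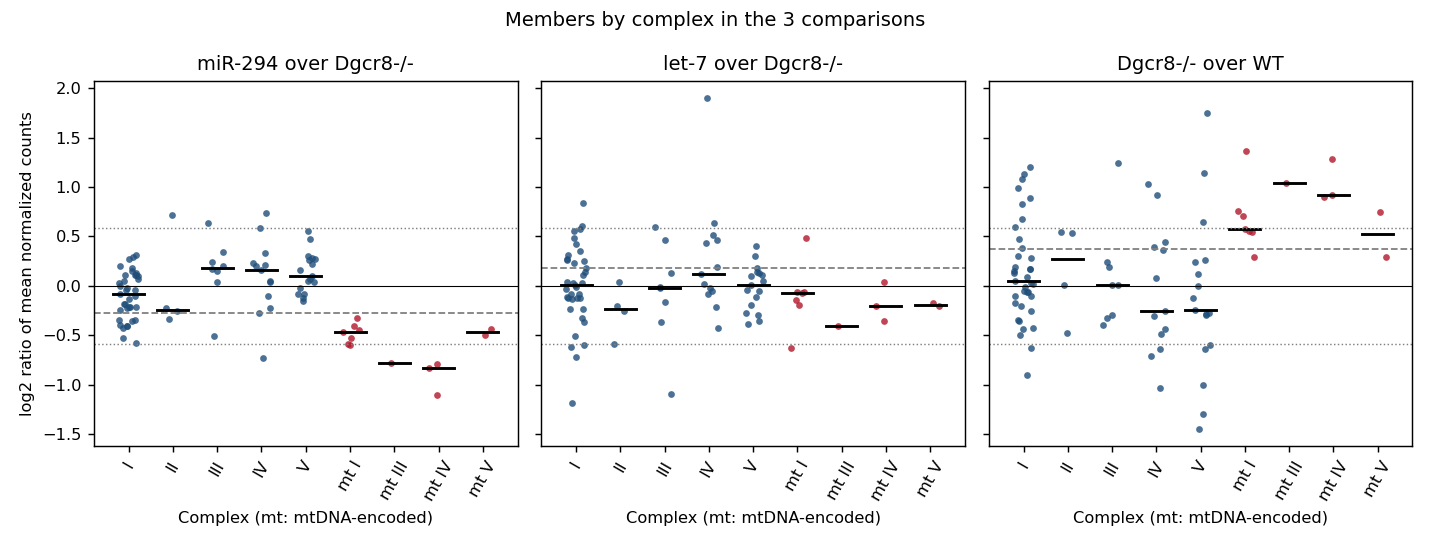
Log2 ratio of mean normalized counts for each member that passed the filter, by complex, with nuclear members in blue, mt- members in red and the median of each complex as a bar. The dashed line is the median of all genes (-0.28, 0.18 and 0.38 from left to right) and the dotted lines mark 1.5-fold. The 13 mt- members lie below 0 on the left and above 0 on the right, and the nuclear members centre near 0 in all 3 panels.

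In let-7-transfected cells, the mt- members lay close to Dgcr8-/- cells and a small set of nuclear members moved in both directions. The median log2 ratio of the mt- members was -0.18, with 11 of 13 below 0 (12 under TMM and CPM, 7 by the mean of log2 values), 1 lower by 1.5-fold (7.69%) and 0 higher. Over all genes 31.5% were higher and 17.1% lower, and the median was 0.18. mt-Nd1 was the 1 called lower, at -0.63, and it was under 1.5-fold without the near-identical cells (-0.54) and in cells with 1 run (-0.55). Both cells of 1 near-identical let-7-transfected pair were far below the others, at 23.976 and 29.284 normalized counts. Its lowest, median and highest cells were 11.518, 5746 and 36713 in Dgcr8-/- and 23.976, 4426.7 and 13330 in let-7-transfected cells. mt-Nd6, the only member on the other strand of mtDNA, went the other way at 0.48, with medians of 163.69 and 271.24, and mt-Co1 was at 0.04. Within the mt- sum, mt-Nd1 took 9.36% in let-7-transfected and 12.6% in Dgcr8-/- cells, and mt-Co1 took 34.7% and 29.3%.

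Of 79 nuclear members, 5 were higher (6.33%) and 6 lower (7.59%) after let-7, with a median of 0.01 that was -0.06 under TMM and -0.07 under CPM. Both shares were below those over all genes, and below the 15% higher and 14.3% lower of genes with a mean of at least 100 counts. Cox6b2, the testis isoform of a complex IV subunit, was highest at 1.91. It had a lowest, median and highest cell of 0, 6.4283 and 92.528 in Dgcr8-/- cells and of 0, 34.266 and 247.04 in let-7-transfected cells, and its mean was 54.1 ± 65.2 (SD) against 14.4 ± 20.3. Ndufs3, of the peripheral arm of complex I, was at 0.84 with medians of 51.09 and 94.221. Cox7a2l (0.64), Ndufa1 (0.61) and Uqcrq (0.60) were the others called higher. Without the near-identical cells Cox7a2l was at 0.47 and Uqcrq at 0.58, and in cells with 1 run Ndufa1 was at 0.57 and Uqcrq at 0.53, all under 1.5-fold.

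The lowest were subunits of complexes I and III. Ndufb7, a complex I accessory subunit, was at -1.19: its lowest, median and highest cells were 31.867, 135.11 and 493.56 in Dgcr8-/- and 0, 60.368 and 216.23 in let-7-transfected cells. It was counted in all 60 Dgcr8-/- cells and in 42 of 48 let-7-transfected cells, and a let-7-transfected cell was higher in 21.3% of pairs. Uqcrc1, a core subunit of complex III, was at -1.10. Its values were 9.5575, 755.26 and 2511.1 in Dgcr8-/- and 0, 258.58 and 1756.4 in let-7-transfected cells, and it was counted in 44 of the 48. Ndufs7 (-0.72), Ndufs1 (-0.62) and Sdhb (-0.59), which carry iron-sulfur clusters, were also called lower, Sdhb only with the near-identical cells (-0.55 without them). None of these 5 named members held the let-7 seed match in the 3′ UTR searched. Marker levels moved too, with 7 of 12 ESC markers lower by 1.5-fold in this comparison (58.3%, against 17.1% of all genes) and 0 higher. The study, which judged by significance, reported no change in its own pluripotency markers across the conditions. The part of the markers in these results was not tested.

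**Figure D3:**
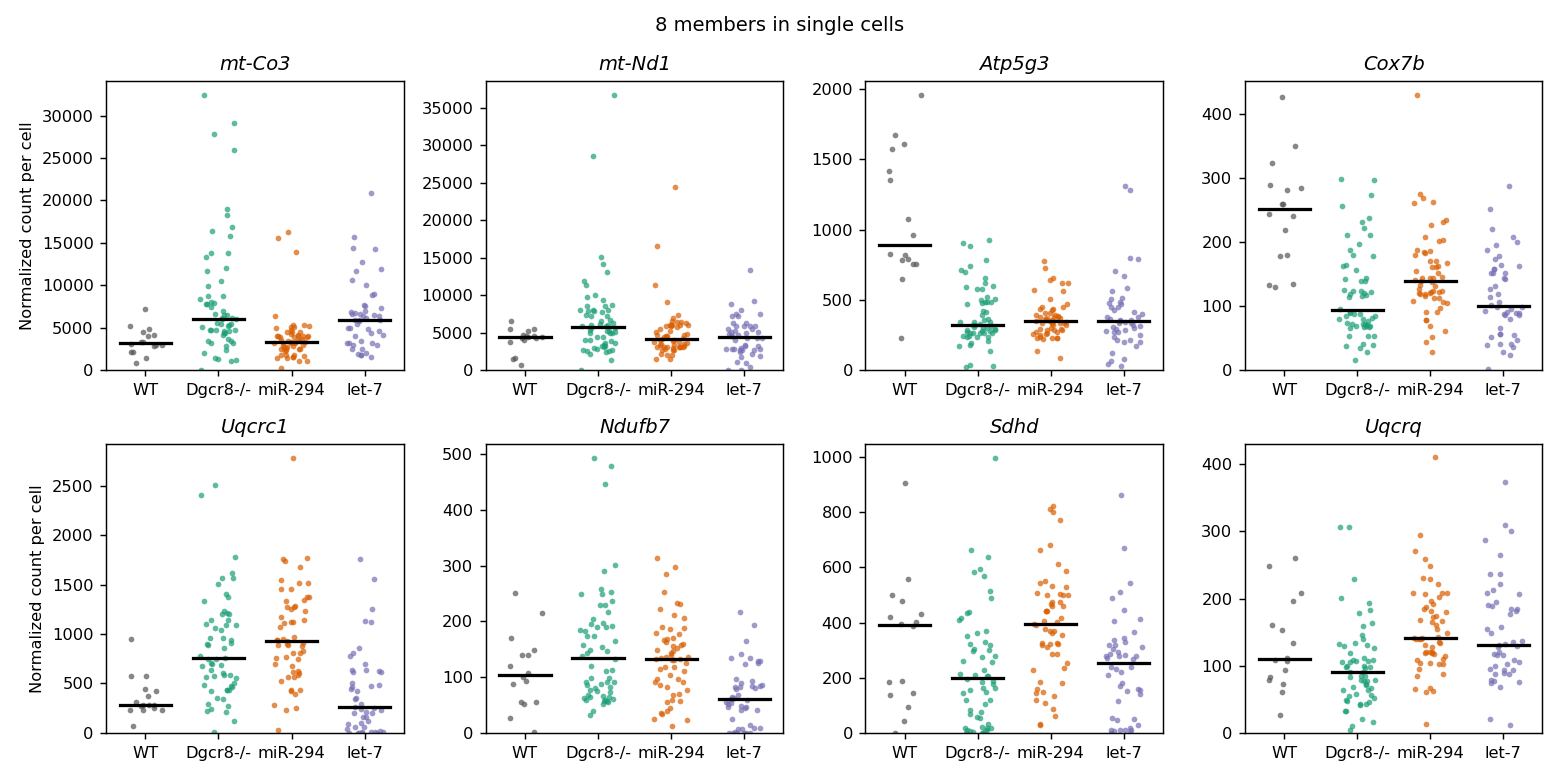
Normalized counts per cell of 8 members (linear axes from 0, each panel with its own scale), 1 point per cell, with the median as a bar. Cells overlap between conditions in every panel, with Atp5g3 and Cox7b highest in WT, Uqcrc1 and Ndufb7 lowest in let-7-transfected cells, and mt-Co3 lower, all by median, in WT and miR-294-transfected cells than in the other 2 conditions.

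Between Dgcr8-/- and WT cells, all 13 mt- members had a higher mean in Dgcr8-/- cells, with a median log2 ratio of 0.75, and all 13 were above 0 under TMM, CPM, pooled counts and the mean of log2 values too. Of them 8 (61.5%) were higher by 1.5-fold and 0 lower, where 42.8% of all genes were higher and 17.4% lower and the median of all genes was 0.38. mt-Nd4l was at 1.37, mt-Co3 at 1.29, mt-Cytb at 1.04, mt-Co1 at 0.92 and mt-Co2 at 0.90. mt-Co3 had a lowest, median and highest cell of 798.45, 3189 and 7159.4 in the 16 WT cells, against a median of 6090.1 in Dgcr8-/- cells, and a Dgcr8-/- cell was higher in 79.9% of pairs. mt-Nd4l was sparse, with counts in 8 of 16 WT and 44 of 60 Dgcr8-/- cells.

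The nuclear members centred on 0 (median 0.004) with DESeq factors and at -0.16 under TMM and -0.21 under CPM, where the median of all genes was 0.38, 0.21 and 0.17, and they spread widely, with 14 higher (17.7%) and 10 lower (12.7%) in Dgcr8-/- cells. With DESeq factors, genes with a mean of at least 100 counts had a median of 0.16, with 29.6% higher and 12.6% lower. The 10 lower members included 5 of ATP synthase (Atp5e, Atp5g3, Atp5j2, Atp5k and Atp5mpl), 3 of complex IV (Cox7a2, Cox7b and Cox7c) and 2 of complex I (Ndufb10 and Ndufc1), and most of them are small accessory subunits. Atp5g3 was lowest at -1.45. Its lowest, median and highest cells were 225.96, 893.38 and 1960.1 in WT and 21.089, 324.52 and 927.63 in Dgcr8-/-, with the Dgcr8-/- cell higher in 8.33% of pairs. Atp5k was at -1.30 with medians of 60.651 and 26.695, Cox7b at -1.04 with medians of 251.77 and 93.47, Atp5e at -1.01 and Ndufc1 at -0.90.

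The 14 higher members included 8 of 37 of complex I (21.6%, against 42.8% of all genes), whose median of 0.05 was below that of all genes. The core subunits Ndufs7 (1.13), Ndufs8 (1.08) and Ndufv1 (0.99) were among them. Atp5s was highest at 1.75, although it was counted in 8 of 16 WT and 22 of 60 Dgcr8-/- cells and rests on 72 summed counts in WT. Uqcrc1 followed at 1.25 with a lowest, median and highest cell of 74.369, 283.26 and 952.86 in WT against a median of 755.26 in Dgcr8-/- cells, which were higher in 83.8% of pairs. Ndufv3, a flavoprotein subunit of complex I, was 2.3-fold higher and Atp5d, the delta subunit of ATP synthase, was at 1.15. In cells with 2 runs, of which 2 were WT, Ndufv3 was at -0.076 on the log2 scale.

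The members called lower here had shorter transcripts than those called higher. The transcript with the longest coding sequence had a median of 691 bases in the 10 lower members, 1513 in the 14 higher and 763 in the other 55. The GC content had medians of 51.2%, 55% and 50.3%. Across the 79 nuclear members the Spearman correlation of the log2 ratio was 0.21 with length and 0.30 with GC content, and across 9992 genes it was 0.01 and 0.13. Genes are not independent replicates, and the part of length and GC content in the difference was not tested. The counts of called members also moved with scaling: under CPM 11 were higher and 18 lower, where 36.9% of all genes were higher and 23.1% lower. Of the calls over all genes 61.5% were then higher, in place of 71.1%.

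Atp5g1, Atp5g2 and Atp5g3 encode the same mature subunit c, which forms the rotor ring of ATP synthase, behind 3 different import sequences. Their relative use differed between WT and the other conditions. Atp5g3 gave 55% of the summed normalized count of the 3 genes in WT, 35.1% in Dgcr8-/-, 30.2% in miR-294-transfected and 39.2% in let-7-transfected cells. By FPKM, which is a level per length, the shares of Atp5g3 were 53.6%, 34.1%, 28.3% and 38%. Atp5g1 gave the largest share in Dgcr8-/- and miR-294-transfected cells, at 43.5% and 48.1%. The sum over the 3 genes was 1957.47 ± 564.335 (SD) in WT, 1118.97 ± 385.268 in Dgcr8-/-, 1231.13 ± 292.956 in miR-294-transfected and 1009.34 ± 362.077 in let-7-transfected cells. WT was thus above the 3 other conditions, whose means lay within 1 SD of each other. Atp5g2 was at 283.67 in WT and 239 in Dgcr8-/- cells, and Atp5g1 at 596.29 and 486.74.

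Per length, in FPKM averaged over all cells, 7 of the 13 mtDNA-encoded mRNAs were above every nuclear member and the other 6 were within the range of the nuclear members. mt-Co1 was at 6410.9 FPKM, mt-Co3 at 6218, mt-Co2 at 5662.8, mt-Nd1 at 4533.7, mt-Atp6 at 4392.4, mt-Cytb at 3563.8 and mt-Nd4 at 1242.4. mt-Atp8 was at 962.41, mt-Nd5 at 759.7, mt-Nd2 at 611.24, mt-Nd6 at 353.23, mt-Nd3 at 342.96 and mt-Nd4l at 250.12. The nuclear member with the highest FPKM was Cox6a1 (1100.2) in complex IV, Atp5b (908.07), the catalytic beta subunit, in complex V, Uqcrb (702.86) in complex III, Ndufa4 (553.21) among the Nduf genes and Sdhb (194.28), the iron-sulfur subunit, in complex II. Ndufa4 was named as a complex I subunit and is now held to be one of complex IV. In normalized counts, Cox6a1 was highest in let-7-transfected cells, with a median of 942.69 against 614.99 in Dgcr8-/-, 570.39 in miR-294-transfected and 510.24 in WT cells.

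Isoforms known from differentiated tissues were near or at 0. Cox6a2 had 0 counts in every condition, which allows up to 3 in each. Cox8b was counted in 1 cell, Cox8c in 5, and Cox4i2 and Cox7b2 in 9 each. Ndufa4l2 was counted in 32 cells, of which 18 were miR-294-transfected, with a mean of 3.78 ± 9.99 (SD) there against 1.35 ± 5.92 in Dgcr8-/- cells. Ndufa11b, annotated as a pseudogene and not a member, had a mean of under 1 count in every condition. The 2 tissue isoforms that passed the filter were Cox6b2 and Cox7a1.

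Whether single mt- mRNAs varied more between cells than nuclear ones depended on the condition, while their sum varied more in each. The coefficient of variation over cells had a median of 83.5% over the 13 mt- members and of 62% over 79 nuclear members in Dgcr8-/- cells. It was 75.3% and 49% in miR-294-transfected, 57.9% and 64.8% in let-7-transfected and 48.2% and 56.9% in WT cells, so the mt- members were the less variable in the last 2. For the sums, it was 74.4% (mt-) and 20.9% (nuclear) in Dgcr8-/-, 66.1% and 11.7% in miR-294-transfected, 49.6% and 15.1% in let-7-transfected and 34.9% and 14.2% in WT cells. The nuclear sum runs over more genes, and these hardly varied together over cells. Such a sum is steadier through summing alone, so the sums are not compared like for like. The number of WT cells was 16, which limits how well their spread is known.

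The median Spearman correlation over the 78 pairs of mt- members was 0.69 in Dgcr8-/-, 0.69 in miR-294-transfected, 0.63 in let-7-transfected and 0.36 in WT cells. Over the 3081 pairs of nuclear members it lay between 0.05 and 0.08 in the 4 conditions. Pairs of 1 nuclear and 1 mt- member had medians between -0.13 (Dgcr8-/-) and 0.04 (let-7-transfected). The share of counts in nuclear and in mt- members was correlated at -0.57 in Dgcr8-/- cells, -0.13 in miR-294-transfected, 0.10 in let-7-transfected and 0.21 in WT cells (Spearman, 60, 58, 48 and 16 cells). The 2 shares come from the same total, and the mt- share also rose with the number of genes detected, at 0.25, 0.33, 0.22 and 0.54 in the same order, so these are descriptions only.

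**Figure D4:**
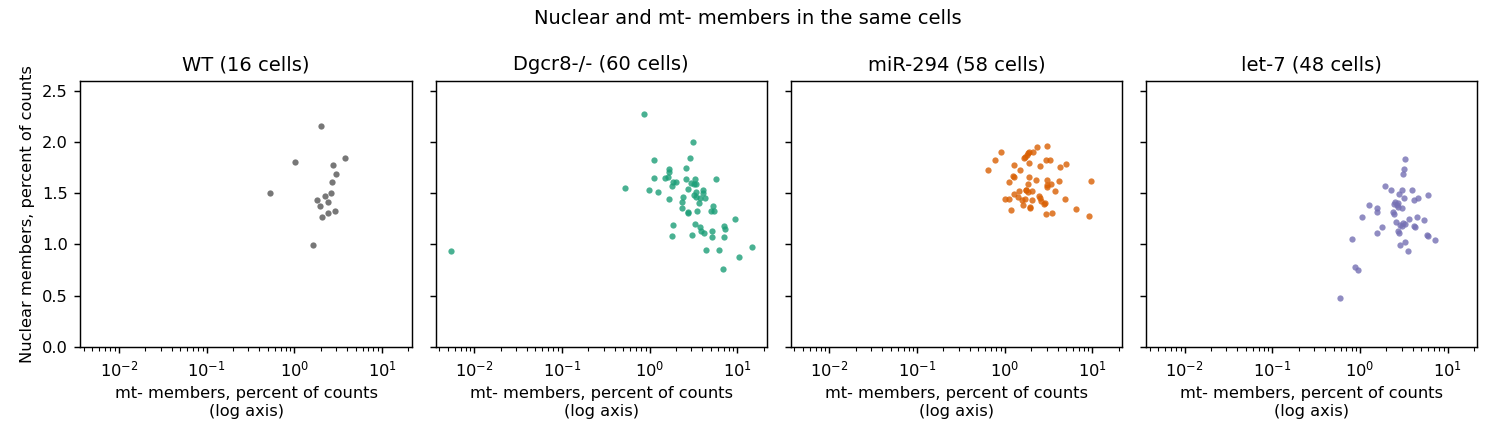
Percent of counts in nuclear members (vertical axis, linear) against percent in mt- members (horizontal axis, log) for each cell, 1 panel per condition. Dgcr8-/- cells with a high mt- share tend to have a lower nuclear share, apart from 1 cell at a mt- share of 0.00539%, and the other conditions show no such slope or a weaker one.

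A single Dgcr8-/- cell nearly lacked mt- mRNA. It had 86 mt- counts among 1594561, a share of 0.00539%, where the next lowest Dgcr8-/- cell was at 0.524%. Its 2 mt- rRNAs had 10 counts in all, while its nuclear share was 0.934% and 7135 genes were detected. The nuclear-retained RNA Neat1 was higher in it than in any other Dgcr8-/- cell, at 4923 normalized counts against a next highest of 2594 and a group median of 145. Malat1, which is also retained in the nucleus, was at 13130 against a median of 2069, level with the highest other cell. The WT cell whose 2 runs differed showed the same feature in 1 of them: its mt- share was 0.000484% in the first run and 3.9% in the second, while its nuclear share was 1.41% and 1.35%. Without this Dgcr8-/- cell the log2 ratio of the summed mt- level was -0.76 for miR-294 over Dgcr8-/-, -0.22 for let-7 over Dgcr8-/- and 0.93 for Dgcr8-/- over WT, in place of -0.74, -0.20 and 0.91. Without the cells whose runs differed it was -0.74, -0.21 and 0.90, and without the 3 near-identical pairs -0.72, -0.15 and 0.91.

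The mt- mRNAs are also counted beside near-identical copies in the nuclear genome. Of the 31-base stretches of a mt- member, over 50% also occurred in another transcript for 7 of 13 members, and nearly all did for mt-Co2 (100%), mt-Co3 (99.9%) and mt-Atp6 (99.5%). For 6 of these 7 the main copy was an unprocessed pseudogene in a block on chromosome 1, and for mt-Co1 (63.9% shared) it was Gm13340 on chromosome 2, an unprocessed pseudogene too. The block ran from Gm28439 (start 24611535) to Gm29216 (end 24616197, GRCm38), a second copy of part of mt-Co1. RSEM divides such reads between both genes. Gm28437, the copy of mt-Co3, had means of 994.7 (WT), 4458, 2357 and 3412 (Dgcr8-/-, miR-294- and let-7-transfected) normalized counts, which was 22.4%, 34.6%, 37.6% and 34.2% of the sum of gene and copy. Adding the copies to the members gave a median log2 ratio of -0.60 after miR-294, -0.21 after let-7 and 0.82 for Dgcr8-/- over WT, with 13, 11 and 13 members in the same direction as these medians. Gm10925, the copy of mt-Atp6, was added to mt-Atp8 as well, although mt-Atp8 had only 7.47% shared stretches. This moved mt-Atp8 from -0.44 to -1.03 after miR-294. The 6 members with at most 50% shared stretches had medians of -0.46, -0.14 and 0.57. For the nuclear members the median share was 4.62%, and none was over 50%.

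Some mt- genes also overlap each other on the same transcript. mt-Atp8 and mt-Atp6 share 43 bases (chrM:7927-7969), and mt-Nd4l and mt-Nd4 share 7 (chrM:10167-10173, plus strand), so that reads there fit both. The second overlap is shown with 12 bases on each side, the shared bases in capitals.
mt-Nd4l and mt-Nd4: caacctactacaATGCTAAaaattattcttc
mt-Atp8 and mt-Nd4l are also among the least counted mt- members, at 0.32% and 0.149% of the mt- sum in Dgcr8-/- cells. Of the 13 mt- members, 12 lie on the plus strand. mt-Nd6 lies on the minus strand, and the Nextera XT libraries do not mark strand, so its reads cannot be told apart from those of the opposite strand.

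Promoters from RefSeq (GRCm38.p6, 250 bases before to 50 after the start) were matched for 67 of the 85 nuclear members. NRF1 and YY1 are factors known to bind promoters of respiratory genes. The letters GCGCATGCG, a core of the NRF1 motif, occurred on either strand in 8 of 67 members (11.9%: Atp5g2, Atp5k, Atp5l, Cox6a1, Ndufa11, Ndufa8, Uqcr11 and Uqcrc1) and in 4.64% of 8239 genes that passed the filter. AAGATGGCG, a core of the YY1 motif, occurred in 7 (10.4%: Atp5j, Atp5j2, Ndufa9, Ndufc1, Ndufs4, Ndufs6 and Ndufs7) and in 4.07% of the genes. The same letters were in 10.3% and 11.8% of 68 mitochondrial ribosomal protein genes. Both cores were shortened after longer forms had been counted. CCGGAAGTG, bound by ETS factors such as GABP, was in 2.99% and 5.58%, and CCAAT, bound by NFY, in 43.3% and 44.1%. CACGTG, bound by MYC, was in 7.46% and 12.3%.

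Genes around the pathway were described from lists chosen by function. Their shares of genes called higher and lower are to be read against those of all genes, 11.7% and 35.1% after miR-294, 31.5% and 17.1% after let-7, and 42.8% and 17.4% in Dgcr8-/- over WT. Of 43 assembly factors that passed the filter, 6 were higher and 12 lower after miR-294 (14% and 27.9%), 15 and 8 after let-7 (34.9% and 18.6%), and 14 and 6 in Dgcr8-/- over WT (32.6% and 14%), so that the shares after let-7 were near those of all genes. The genes at the ends were Cox10 (1.497) and Atpaf1 (-1.62) after miR-294, Cox18 (2.10) and Sdhaf3 (-3.87) after let-7, and Acad9 (2.63) and Ndufaf2 (-1.54) in Dgcr8-/- over WT. Of 19 genes for mtDNA transcription, replication and RNA handling, 2 were higher and 5 lower after miR-294 (10.5% and 26.3%), 4 and 4 after let-7 (21.1% each), and 4 and 5 in Dgcr8-/- over WT (21.1% and 26.3%). Polrmt, the mtDNA polymerase for transcription, was at -1.58 after miR-294, the lowest of the list, and at 1.74 in Dgcr8-/- over WT, the highest. After let-7 Polrmt was at -1.215. It was counted in 31 of 60 Dgcr8-/-, 23 of 58 miR-294-transfected, 11 of 48 let-7-transfected and 7 of 16 WT cells. Its means were 53.3, 17.9, 23 and 16 normalized counts in this order. The part of Polrmt in the levels of the mt- mRNAs was not tested. Tfam, which packages mtDNA and starts its transcription, was at 0.50 after miR-294, -0.03 after let-7 and -0.81 in Dgcr8-/- over WT. Twnk, the mtDNA helicase, was highest after miR-294 (1.01) and after let-7 (0.83), Tfb1m was lowest after let-7 (-2.37) and Polg2 lowest in Dgcr8-/- over WT (-1.65).

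Of 11 regulators of mitochondrial biogenesis that passed, 2 were higher and 1 lower after miR-294 (18.2% and 9.09%, ends Myc at 1.17 and Nfe2l2 at -0.84), 1 and 3 after let-7 (9.09% and 27.3%, Nrf1 at 0.78 and Mycn at -2.83), and 3 and 4 in Dgcr8-/- over WT (27.3% and 36.4%, Ppard at 2.22 and Myc at -1.91). Ppargc1a, the coactivator that drives mitochondrial biogenesis in many tissues, was counted in 1 cell, which was WT. Of 22 genes of pyruvate entry and the citric acid cycle, 0 were higher and 8 lower after miR-294 (36.4% lower, near all genes, ends Pdha1 at 0.30 and Mpc1 at -2.06), 2 and 4 after let-7 (9.09% and 18.2%, Pdhb at 0.86, with Pdk4 at 0 in the let-7-transfected cells), and 9 and 2 in Dgcr8-/- over WT (40.9% and 9.09%, Idh2 at 1.95 and Pdk4 at -4.51). Pdk4 was counted in 2 of 16 WT and 5 of 60 Dgcr8-/- cells, so its value rests on 2 WT cells. The share higher was again near that of all genes. Of 14 electron carriers and related genes, 0 were higher and 2 lower after miR-294 (14.3% lower, Dhodh at 0.58 and Etfdh at -1.19), 1 and 3 after let-7 (7.14% and 21.4%, Coq7 at 0.59 and Dhodh at -1.52), and 5 and 3 in Dgcr8-/- over WT (35.7% and 21.4%, Etfdh at 2.00 and Slc25a4 at -1.48).

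Of 17 genes of glycolysis, the other route to ATP, 1 was higher and 2 lower after miR-294 (5.88% and 11.8%, ends Pfkl at 0.70 and Pfkm at -1.96), 2 and 3 after let-7 (11.8% and 17.6%, Slc2a1 at 0.98 and Pgam1 at -1.06), and 10 and 1 in Dgcr8-/- over WT (58.8% and 5.88%, Hk1 at 3.74 and Slc2a3 at -1.27). Their medians were 0.17, -0.35 and 0.78. Of 77 mitochondrial ribosomal protein genes, 7 were higher and 3 lower after miR-294 (9.09% and 3.9%, Mrpl11 at 1.11 and Mrpl41 at -0.91), 8 and 9 after let-7 (10.4% and 11.7%, Mrpl54 at 1.17 and Mrpl34 at -1.07), and 16 and 14 in Dgcr8-/- over WT (20.8% and 18.2%, Mrpl3 at 1.70 and Mrpl13 at -1.08), with medians of 0.17, 0.05 and -0.06. Of 85 cytosolic ribosomal protein genes, 2 were higher and 1 lower after miR-294 (2.35% and 1.18%, Rpl12 at 1.17 and Rpl5 at -0.60), 2 and 1 after let-7 (2.35% and 1.18%, Rpl12 at 0.63 and Rpl5 at -0.96), and 3 and 17 in Dgcr8-/- over WT (3.53% and 20%, Rpl10l at 3.24 and Rpl27 at -1.03), with medians of 0.19, 0.10 and -0.24. The nuclear members, with medians of 0.04, 0.01 and 0.00, lay below both ribosomal lists after each mimic and above both in Dgcr8-/- over WT.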

How the data were processed

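The authors aligned the reads of each run to mouse genes (Gencode M4) with RSEM (version 1.2.19) and deposited 2 values per gene: the expected count, left unscaled, and the FPKM, scaled by them for length and depth. Elsewhere the study names TopHat as the aligner. They had removed cells with few or uneven reads and transfected cells without lower targets. Expected counts were added over runs, rounded, and divided by DESeq size factors. FPKM values, averaged over runs by their totals, were used for levels per length only. Cells are not replicates of a condition and each condition was 1 chip, so no test was run, and ratios of means over cells are descriptions. Symbols, coordinates and transcripts came from Gencode M21 (GRCm38), in which 819 of 42493 genes had no record. Lists were taken from textbook knowledge, and members and lists were chosen with earlier results of these data known.

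Named nuclear members were the 5 highest and 5 lowest in each comparison, together with all mt- members, complex II, the Atp5g genes, the top member per length of each complex, the tissue isoforms and the ends of each other list. Others were named after their values were seen. The values of 1 member that met this rule are not reported here. Alternatives used TMM factors (edgeR 4.0.16, R 4.3.3), CPM (counts per 1000000) with and without the members and ribosomal genes, log means with a pseudocount of 1, pooled counts, first runs, subsets of cells, and filters of 1 count or a mean of 50. Ratios were tested on simulated counts. Python 3.11.15, numpy 2.4.6, scipy 1.17.1 and pandas 2.3.3 were used.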

Additional observations from a re-analysis of the deposited data

How the results depend on the processing

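The limits come from 1 chip per condition and from scaling. The median of all genes was -0.28, 0.18 and 0.38 for miR-294 over Dgcr8-/-, let-7 over Dgcr8-/- and Dgcr8-/- over WT, and -0.08, 0.11 and 0.17 under CPM. The share of calls that were higher was 24.9%, 64.8% and 71.1%, and 38.8%, 59.9% and 61.5% under CPM. Over all alternatives, the median log2 ratio of the mt- members ran from -0.60 to -0.18 after miR-294, from -0.23 to -0.003 after let-7 and from 0.47 to 0.92 in Dgcr8-/- over WT. The summed mt- level ran from -0.88 to -0.42, from -0.30 to 0.03 and from 0.62 to 1.03, so the sign after let-7 was not kept. For the nuclear members the medians ran from 0.00 to 0.25, from -0.08 to 0.07 and from -0.22 to 0.02, and the sums from -0.05 to 0.20, from -0.16 to -0.05 and from -0.12 to 0.21. The shifts were under 1 SD over cells in each. That SD describes single cells and is a wide limit for a ratio of means, so it does not show that the values are firm. The sign was not kept for the nuclear sums after miR-294 and in Dgcr8-/- over WT.

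Numbers of nuclear members past the fold are small and changed more. After miR-294, 3 were higher and 1 lower. Higher were 6 under TMM, under CPM and under CPM without members and ribosomal genes, 10 by log means, 7 by pooled counts, 8 in cells with 2 runs and 0 at 2-fold. Lower were 0 under TMM, both CPM, pooled counts, a mean of 50 and 2-fold, 2 in first runs, 4 in cells with 1 run and with no filter, and 6 in cells with 2 runs. Over all genes 15.3% were higher and 28.9% lower under TMM, 16.9% and 26.7% under CPM, and 16.7% and 19.7% by log means. These shares were 17.7% and 26.5% by pooled counts, 15.5% and 34.3% in cells with 1 run, and 16.2% and 40% in cells with 2 runs. They were 10.8% and 37% in first runs, 22.4% and 38.1% with no filter, and 6.12% and 27.1% at a mean of 50. After let-7, 5 were higher and 6 lower. Higher were 2 under TMM and both CPM, 9 by log means, 3 by pooled counts, 8 with no filter and 1 at 2-fold, and lower were 10 by log means and 2 at 2-fold. Over all genes 27.7% were higher and 19.1% lower under TMM, 28.2% and 18.9% under CPM, and 24.1% and 19.2% by log means. These shares were 28.7% and 18.9% by pooled counts and 37.6% and 24.9% with no filter. In Dgcr8-/- over WT, 14 were higher and 10 lower. Higher were 22 in cells with 2 runs and 7 at 2-fold, and lower were 17 under TMM, 18 under both CPM, 16 in cells with 2 runs and 4 at 2-fold. Over all genes 37.9% were higher and 22% lower under TMM, 36.9% and 23.1% under CPM, and 59.9% and 17.8% in cells with 2 runs. The counts of members are to be read against these shares. No share over all genes was computed at 2-fold, so the counts at 2-fold have none to be read against. The cause of the changes between settings was not tested. Ndufv3 in Dgcr8-/- over WT reversed to -0.076 in cells with 2 runs. These include 2 WT cells, both without a count of mt-Nd4l, which gave no value there. The alternatives without the cell of lowest mt- share, without the cells whose runs differ, with pseudogene counts and with medians over cells were chosen after seeing the data. No paired analysis was possible because the result comes from no test and replicate numbers only name cells.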
